A study of Mus musculus with 20 samples.

Results

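Klf2, Klf3, Klf6, Klf13, Btg1, Btg2, Tob1, Slfn1, Slfn2 and Pik3ip1 were listed as genes that keep T cells at rest. Their RNA was followed through a culture of mouse CD8 and CD4 T cells in IL-7 and IL-15. They were chosen by name for that role, with earlier results of these data known. All 10 were found among the 49671 genes of the count table, and all 10 passed the filter on low counts that left 13290 genes for testing. Each of the 4 groups held 5 libraries of polyadenylated RNA. CD8 week 4 cells had been expanded for 25 days and CD8 week 1 cells for 4 days, CD4 week 3 cells for 18 days and CD4 week 1 cells for 4 days. Every group had first been activated on plates coated with anti-CD3 and anti-CD28 in medium with 1 ng/mL human IL-2, was then expanded in 10 ng/mL human IL-7 and 50 ng/mL human IL-15, and was sorted as CD44+CD62L+, the surface phenotype of central memory cells, so no group was naive, unsorted or grown without these cytokines. The cells came from spleen and inguinal lymph nodes of albino B6 mice (polyclonal cells) or of the T cell receptor transgenic strains Marilyn-BLITC and MataHari-BLITC, and the polyclonal cells were activated for longer than the transgenic ones. The labels do not say which library came from which strain, nor whether separate animals or cultures stand behind the 5 libraries. The p-values below therefore measure only how these libraries vary, which may be technical variation. In bulk RNA, fewer cells that express a gene and less of its RNA per cell cannot be told apart.

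A resting T cell is held in its state by active programmes that are taken down on activation. KLF2 and KLF3 are zinc finger transcription factors, of which KLF2 is induced by FOXO1 when PI3K signalling is low and itself induces S1pr1, the gene of the receptor by which T cells leave lymph nodes. BTG1, BTG2 and TOB1 are anti-proliferative adaptors that bring the CCR4-NOT deadenylase to mRNA, SLFN1 and SLFN2 belong to the Schlafen family, named after the German word for sleep for their growth-arresting effect in thymocytes, and PIK3IP1 is a membrane protein that inhibits PI3K.

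The libraries held 13.3 to 28.3 M counts. The first principal component of the 1000 most variable genes carried 63.8% of their variance. On it, replicates 1 and 2 of CD8 week 4 had scores of -59.9 and -64.6, apart from replicates 3 to 5 of that group at -29.0 to -23.9. The count of the 10 genes that passed is given with and without them for CD8 cells over culture and for CD8 week 4 against CD4 week 3. Other counts that use these libraries are not given without both. CD8 week 1 replicate 3 scored -33.7, with the rest of its group at -62.4 to -52.9. Replicate 2 scored 18.7 in CD4 week 1, with the rest at 42.4 to 50.6, and 24.5 in CD4 week 3, with the rest at 53.7 to 69.3. The coreceptor genes matched the labels: Cd8a and Cd8b1 together had 988 to 2677 counts per 1 M counts of the library (CPM) in CD8 week 4 and 1236 to 2096 CPM in CD8 week 1, against at most 30.7 CPM in CD4 week 3 and 10.1 CPM in CD4 week 1 libraries. Cd4 was at 0 in all CD8 week 4 libraries and at most 0.585 CPM in CD8 week 1. Of 4 B cell markers, Ms4a1 had 0 to 0.532 CPM in every library. The 4 summed to 1.04 to 8.79 CPM in CD8 week 4 and 9.28 to 13 CPM in CD8 week 1, nearly all of it Cd79b. Summed myeloid markers stayed at or under 1.55 CPM in all groups. Of 3 NK cell markers, Eomes, which CD8 memory cells also express, gave most of the 194 to 308 CPM in CD8 week 4 and 162 to 349 CPM in CD8 week 1, against up to 9.63 CPM in CD4 week 3 and 22.1 CPM in CD4 week 1. The NK receptor gene Klrb1c had 6.10 to 47.6 CPM in CD8 week 4 and 2.74 to 20.5 CPM in CD8 week 1, against at most 0.755 CPM in CD4 libraries, and Ncr1 was at 0 to 3.60 CPM in CD8 week 4 and 0.0754 to 0.479 CPM in CD8 week 1. The part of these markers in the results below was not tested.

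The genes lie on several chromosomes (mouse build GRCm38, merged GENCODE exons in the deposited table). Klf2 lies at chr8:72319033-72321656, Klf3 at chr5:64803388-64832901, Klf6 at chr13:5861489-5870393 and Btg1 at chr10:96617001-96622813, all on the plus strand. On the minus strand are Klf13 at chr7:63886351-63938915 and Btg2 at chr1:134075170-134079120. Chromosome 11 holds Tob1 at chr11:94211454-94215495, Pik3ip1 at chr11:3330401-3342971 and the neighbouring Schlafen genes Slfn2 at chr11:83065112-83070678 and Slfn1 at chr11:83116849-83122670, all on the plus strand. No exon base of the 10 genes was shared with another gene of the same strand. Reads that mapped to several places were not counted, so how reads common to Schlafen paralogs would fall is uncertain. The Btg1 pseudogenes Btg1-ps1 and Btg1-ps2 had 0 counts.

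Promoter sequence is shown for Klf2 with Klf3, each the other's nearest gene in the comparison of patterns below, for the neighbouring Slfn1 and Slfn2, and for Btg1, which alone held a FOXO motif. All sequences are from RefSeq (GRCm38.p6), plus strand, and end before the first annotated base of the gene. In Klf2 (chr8:72318812-72319032) and Klf3 (chr5:64803271-64803387), capitals mark the GC box GGGCGGG, letters that KLF and Sp zinc fingers are known to bind.
Klf2: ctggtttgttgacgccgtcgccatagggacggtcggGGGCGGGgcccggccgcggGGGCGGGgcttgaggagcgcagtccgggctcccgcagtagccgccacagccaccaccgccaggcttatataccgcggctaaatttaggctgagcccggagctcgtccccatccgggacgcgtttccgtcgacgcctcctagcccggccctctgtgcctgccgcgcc
Klf3: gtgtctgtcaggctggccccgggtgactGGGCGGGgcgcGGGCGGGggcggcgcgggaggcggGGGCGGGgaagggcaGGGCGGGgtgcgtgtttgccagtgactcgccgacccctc
In Slfn1 (chr11:83116570-83116819) and Slfn2 (chr11:83064862-83065111), capitals mark the longest run of bases that both sequences hold.
Slfn1: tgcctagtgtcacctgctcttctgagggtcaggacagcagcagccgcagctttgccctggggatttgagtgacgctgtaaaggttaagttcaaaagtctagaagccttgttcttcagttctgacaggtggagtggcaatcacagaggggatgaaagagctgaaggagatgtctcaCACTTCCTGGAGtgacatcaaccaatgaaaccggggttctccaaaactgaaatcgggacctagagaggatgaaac
Slfn2: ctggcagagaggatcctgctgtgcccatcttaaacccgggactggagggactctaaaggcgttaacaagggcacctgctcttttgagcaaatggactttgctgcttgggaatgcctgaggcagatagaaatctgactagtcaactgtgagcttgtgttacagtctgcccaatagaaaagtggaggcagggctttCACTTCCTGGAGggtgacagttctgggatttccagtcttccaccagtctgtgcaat
In Btg1 (chr10:96616751-96617000), capitals mark the FOXO motif TGTTTAC.
Btg1: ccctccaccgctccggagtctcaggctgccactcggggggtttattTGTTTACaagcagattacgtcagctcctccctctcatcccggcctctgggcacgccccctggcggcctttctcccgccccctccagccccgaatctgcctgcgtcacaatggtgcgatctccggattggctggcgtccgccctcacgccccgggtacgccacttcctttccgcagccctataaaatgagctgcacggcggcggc
Motifs were searched on both strands in windows from 250 bases before to 50 bases after each RefSeq start. The FOXO motif TGTTTAC was found in 1 of the 10 windows, against 3.65% of all 32851 mouse windows of this length. The KLF motif CCACACC was found in 1 (Klf13), against 7.58%. The GC box was in 6 (Klf2, Klf3, Klf13, Btg1, Btg2 and Tob1), against 25.6%, and with 4 matches Klf3 held the most. These 6 windows were 64.7 to 76.7% G or C, while the median over all windows was 52.7% and those of Slfn1, Slfn2 and Pik3ip1 stood at 50.3, 49.7 and 54.7%. No match of one motif overlapped a match of another. The 12 bases that Slfn1 and Slfn2 share begin 75 and 56 bases before their starts and occur in 9 of the 32851 windows (0.0274%), counting the 250 bases before each start. Shared runs of that length were not limited to them: Klf2 and Klf3 shared 13 bases, and Btg1 with Btg2 shared 12. The GC box and the shared run were chosen after the sequences had been seen. The matches are letters in a window and were not tested for binding.

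Per exon length, Slfn2 and Slfn1 had the highest means of the 10 in 3 of the 4 groups, and in CD4 week 3 libraries Klf2 (184 ± 40.4 RPKM) stood between Slfn2 and Slfn1 (180 ± 22.5 RPKM). Tob1 and Klf3 had the lowest means in all 4. Mean levels in CPM per kilobase of exon (RPKM) were 146 ± 11.5 for Slfn2, 113 ± 12.2 for Slfn1, 10.9 ± 0.688 for Tob1 and 6.32 ± 4.92 for Klf3 in CD8 week 4 libraries (SD, n = 5 each). In CD8 week 1 libraries they were 98.4 ± 14 for Slfn2, 76.7 ± 27.4 for Slfn1, 6.78 ± 1.14 for Tob1 and 1.70 ± 0.849 for Klf3. The CD4 libraries held 209 ± 34.9 RPKM of Slfn2 and 15 ± 3.47 RPKM of Klf3 at week 3, and 237 ± 66.2 RPKM of Slfn2 and 10.3 ± 3.21 RPKM of Klf3 at week 1. For 9 of the 10 genes the lowest group mean was that of CD8 week 1. The exception was Klf6, where CD8 week 4 was lowest. From the highest group to the lowest the means differed by 8.87-fold for Klf3 and 5.39-fold for Klf2, and by 1.44-fold for Klf6 and 1.48-fold for Klf13. In most of these orders, neighbouring groups overlapped. Libraries of neighbouring groups stood wholly apart only between CD4 week 1 and CD8 week 1 for Btg2 and Pik3ip1, between CD4 week 3 and CD8 week 4 for Slfn1, and between CD8 week 4 and CD8 week 1 for Slfn2.

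**Figure D1:**
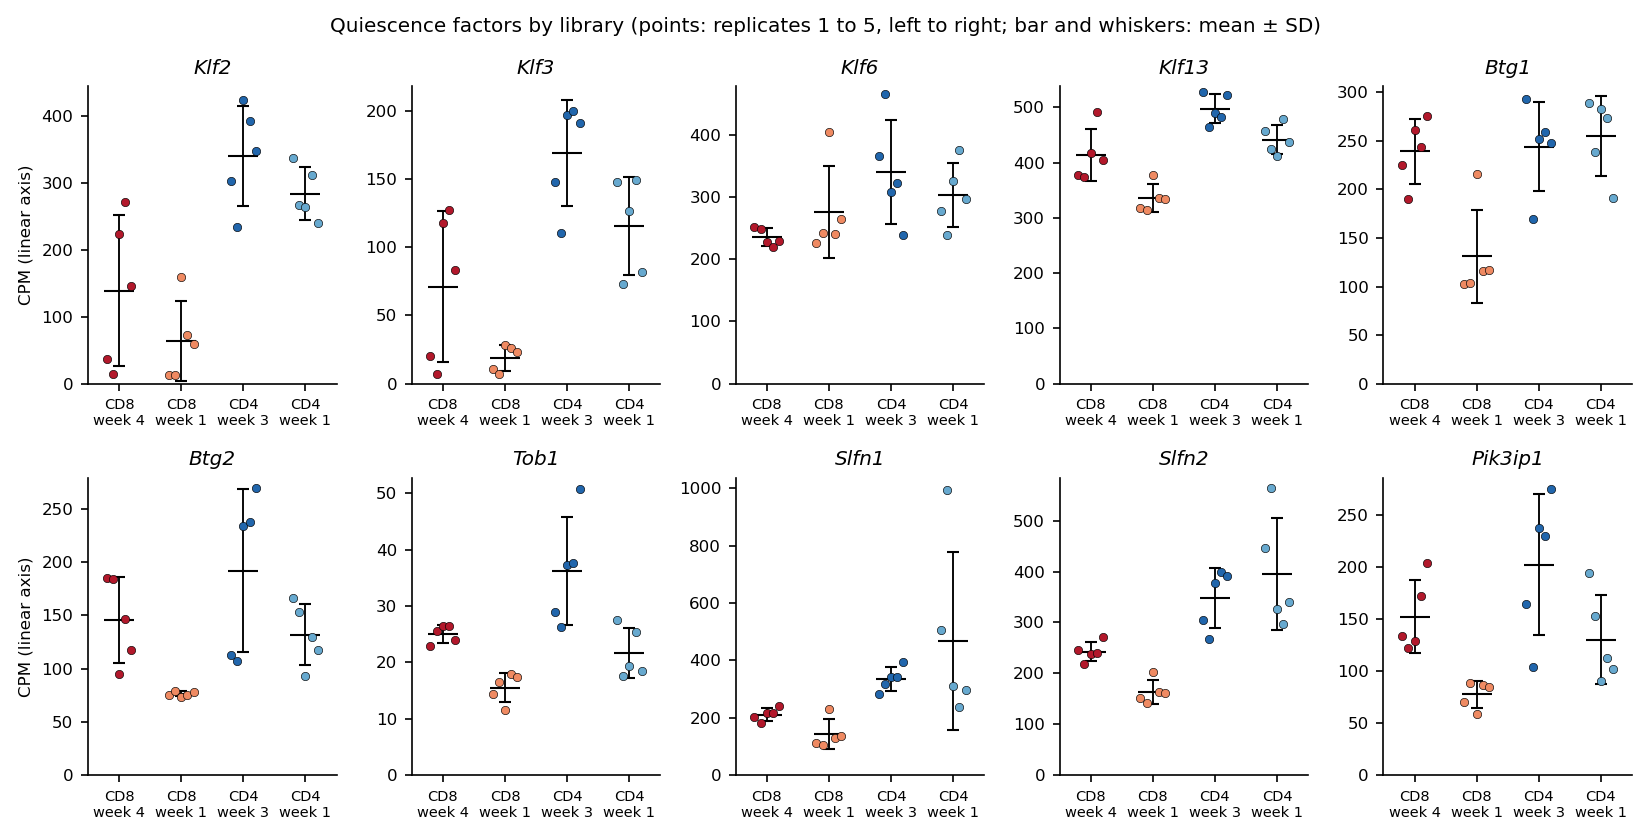
CPM (linear axis) of the 10 quiescence factors in each of the 20 libraries, by group; points run from replicate 1 to 5 within a group, and bars and whiskers are mean ± SD (n = 5). The CD8 week 1 libraries lie lowest for most genes, Klf2 and Klf3 spread widely in CD8 cells, and CD8 week 1 replicate 3 stands above its group for Klf6, Btg1 and Slfn1.

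The first comparison asked how these genes changed in CD8 cells from week 1 of the expansion to its week 4. Of the 10, 7 were higher in week 4 libraries: Klf3, Klf13, Btg1, Btg2, Tob1, Slfn2 and Pik3ip1. The rises were 1.23-fold (Klf13) to 3.73-fold (Klf3), and none fell. Klf2, Slfn1 and Klf6 did not pass the test, which throughout is edgeR's quasi-likelihood test with a Benjamini-Hochberg adjusted p under 0.05 over all 13290 genes. Of all tested genes, 33.5% passed in either direction and 17.1% were higher at week 4. The median log2 fold change was 0.78 over the 10 genes and 0.03 over all genes. The proliferation genes ran the other way: 17 of 18 fell, with summed levels of 2248 to 2882 CPM in CD8 week 4 and 3802 to 7743 CPM in CD8 week 1. The ribosomal protein genes took 7.90 to 8.98% of the counts in CD8 week 4 and 6.37 to 7.68% in CD8 week 1. The part of either in the rises was not tested.

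Among the KLF factors, Klf3, which encodes a repressor that recruits CtBP, had 20.18, 6.815, 117.9, 127.3 and 83.32 CPM in CD8 week 4 libraries (replicates 1 to 5), against 10.63, 7.092, 27.96, 26.31 and 23.34 CPM in CD8 week 1 libraries. Week 4 replicates 3 to 5 lay above every week 1 library, and week 4 replicates 1 and 2 lay within the week 1 range or under it. Its log2 fold change was 1.90 (SE 0.561, adjusted p = 0.0151, edgeR). Klf2 showed the same split, with 36.43, 14.93, 224.3, 271.7 and 145.9 CPM in CD8 week 4, against 12.29, 13.23, 158.9, 72.17 and 59.25 CPM in CD8 week 1. The groups overlapped over most of their range, and the log2 fold change of 1.13 (95% confidence interval -0.23 to 2.49) did not pass (adjusted p = 0.188, edgeR). Klf13, whose product is known as an activator of the chemokine gene Ccl5 in T cells, had 374.6 to 491.1 CPM in CD8 week 4 (median 404.8) and 314.4 to 377.8 CPM in CD8 week 1 (median 334.0). Its log2 fold change was 0.30 (SE 0.0755, adjusted p = 0.00618, edgeR), the smallest of the 7 rises. Klf6, an early response gene in many cells, had 219.9 to 252.2 CPM in CD8 week 4 and 225.2 to 404.6 CPM in CD8 week 1. Its log2 fold change of -0.23 (interval -0.58 to 0.13) did not pass, and a single library, week 1 replicate 3, held the 404.6 CPM.

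The anti-proliferative adaptors Btg1, Btg2 and Tob1 all rose. Btg1 had 224.8, 189.7, 261.3, 243.9 and 276.2 CPM in CD8 week 4, against 102.9, 103.6, 216.1, 116.2 and 116.8 CPM in CD8 week 1. Only week 1 replicate 3 reached the week 4 range, and the log2 fold change was 0.87 (SE 0.191, adjusted p = 0.00266, edgeR). Btg2 had 185.3, 184.5, 94.49, 146.6 and 117.3 CPM in CD8 week 4, against 74.88, 78.96, 73.40, 75.21 and 78.37 CPM in CD8 week 1. Every week 4 library was above every week 1 library, and here week 4 replicates 1 and 2, the low ones for Klf2 and Klf3, were the highest. The log2 fold change was 0.94 (SE 0.243, adjusted p = 0.00732, edgeR), and 0.65 (adjusted p = 0.0698) without those 2 libraries. Tob1 had 22.86 to 26.42 CPM in CD8 week 4 and 11.55 to 17.96 CPM in CD8 week 1, again without overlap. It rose by 0.69 on the log2 scale (SE 0.169, adjusted p = 0.00498, edgeR).

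Of the Schlafen pair, Slfn2, loss of which makes mouse T cells leave quiescence, had 245.6, 217.9, 238.1, 239.4 and 271.0 CPM in CD8 week 4, against 150.7, 141.0, 202.1, 162.9 and 161.9 CPM in CD8 week 1. The groups did not overlap, and it rose by 0.57 (SE 0.155, adjusted p = 0.00987, edgeR). Slfn1 had 200.8, 179.7, 215.7, 214.9 and 241.7 CPM in CD8 week 4, against 113.3, 103.5, 231.3, 130.0 and 137.0 CPM in CD8 week 1. Apart from week 1 replicate 3, all week 1 libraries were lower than all week 4 libraries. Its log2 fold change, 0.56 (interval -0.07 to 1.19), was close to that of Slfn2 in size but did not pass (adjusted p = 0.160, edgeR). Pik3ip1, the PI3K inhibitor, had 133.8, 122.8, 129.3, 172.1 and 204.5 CPM in CD8 week 4, against 70.52, 88.91, 58.74, 87.06 and 84.47 CPM in CD8 week 1. All week 4 libraries were above all week 1 libraries, and it rose by 0.97 (SE 0.243, adjusted p = 0.00587, edgeR). Btg2, Tob1, Slfn2 and Pik3ip1 are thus the 4 of the 10 genes whose CD8 groups did not overlap, while 20.8% of all tested genes had groups that did not overlap.

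Title numbers split the CD8 libraries of each time into a range A, holding replicates 1 to 3, and a range B, holding replicates 4 and 5, which need not be a batch. Within range A alone, 1 of the 10 genes passed (Pik3ip1, 0.81, adjusted p = 0.0461, edgeR), where 4.17% of all tested genes passed. The log2 fold changes of genes that lost their call at 3 libraries a group were 1.66 for Klf3, 1.01 for Btg2, 0.81 for Tob1, 0.67 for Btg1, 0.49 for Slfn2 and 0.20 for Klf13. Within range B alone 9 passed (all but Klf6), where 49.2% of all tested genes did. With the range as a term in the fit, the 7 genes were those named above. Without CD8 week 4 replicates 1 and 2, a choice made after the data were seen, 7 passed too (29.3% of all tested genes did), with Klf2 (1.76, adjusted p = 0.0242, edgeR) in place of Btg2. Without CD8 week 1 replicate 3, Klf2 (1.82, adjusted p = 0.0359, edgeR) and Slfn1 (0.80, adjusted p = 0.0418, edgeR) passed as well, so the count was 9, where 39.8% of all tested genes passed. The rise of Klf3 did not pass with limma-voom (1.41, adjusted p = 0.134) or in a fit of the CD8 libraries alone (1.89, adjusted p = 0.0585, edgeR).

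CD8 week 1 replicate 3 stood apart from the rest of its group in the 10 genes. It held the highest CD8 week 1 value of Klf2, Klf3, Klf6, Klf13, Btg1, Slfn1 and Slfn2 and the lowest of Btg2, Tob1 and Pik3ip1. Its 18 proliferation genes summed to 3802 CPM, where the rest of the group had 7001 to 7743 CPM. The 10 quiescence factors together took 0.179% of its counts, against 0.112 to 0.128% in the rest of its group and 0.152 to 0.216% in the CD8 week 4 libraries.

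**Figure D2:**
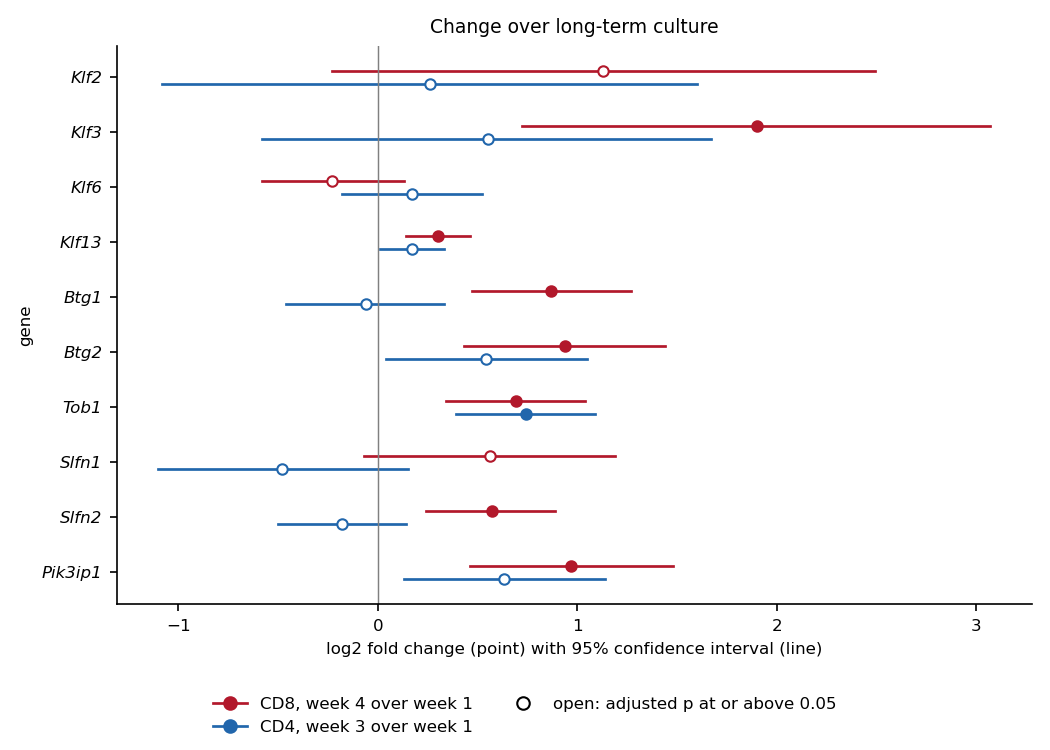
Log2 fold change of each gene over culture (points) with its 95% confidence interval (lines), CD8 week 4 over week 1 in red and CD4 week 3 over week 1 in blue; filled points had an adjusted p under 0.05 (edgeR). In CD8 cells 7 points are filled, from 0.30 for Klf13 to 1.90 for Klf3, and in CD4 cells only Tob1 is, at 0.74.

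The same question was asked of CD4 cells between week 1 and week 3. Here Tob1 was the only gene of the 10 that passed the test: it had 28.90, 26.34, 37.22, 37.68 and 50.85 CPM in CD4 week 3, against 27.43, 17.59, 19.40, 25.37 and 18.46 CPM in CD4 week 1. The groups overlapped in 1 library each way, and it rose 1.67-fold (log2 fold change 0.74, SE 0.167, adjusted p = 0.00808, edgeR). Of all tested genes, 16.5% passed in either direction and 7.67% were higher at week 3, so 1 of 10 was near the share of all genes. The median log2 fold change was 0.22 over the 10 genes and 0.01 over all genes. The libraries of the CD4 groups overlapped for each of the 10 genes, where 8.15% of all tested genes had groups that did not.

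Pik3ip1 and Btg2 were high and low in the same CD4 week 3 libraries. Pik3ip1 had 164.8, 104.1, 237.6, 230.3 and 275.7 CPM in CD4 week 3, against 194.5, 153.3, 90.23, 112.4 and 101.9 CPM in CD4 week 1. Btg2 had 112.3, 106.8, 233.7, 237.6 and 269.7 CPM in CD4 week 3, against 165.9, 152.8, 93.33, 130.1 and 117.8 CPM in CD4 week 1. For both, week 3 replicates 3 to 5 lay above all week 1 libraries, while week 3 replicates 1 and 2 lay within the week 1 range. Their log2 fold changes, 0.63 for Pik3ip1 (interval 0.13 to 1.14, adjusted p = 0.0763, edgeR) and 0.54 for Btg2 (interval 0.04 to 1.05, adjusted p = 0.127, edgeR), did not pass. Without CD4 week 3 replicate 2, Pik3ip1 (0.80, adjusted p = 0.0100, edgeR) and Btg2 (0.69, adjusted p = 0.0272, edgeR) passed beside Tob1, where 27.1% of all tested genes passed, so that 3 of 10 was again near the share of all genes. Without CD4 week 1 replicate 1 Pik3ip1 passed (0.82, adjusted p = 0.0289, edgeR), where 15.5% of all tested genes did. CD4 week 3 replicate 2 also had 4328 CPM of summed proliferation genes, against 1134 to 1861 CPM in the rest of its group and 2928 to 5431 CPM in CD4 week 1. The part of this in the values was not tested.

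The Schlafen genes had lower means at week 3 in CD4 cells, without passing. Slfn1 had 281.0, 316.3, 341.9, 343.0 and 395.5 CPM in CD4 week 3, against 504.5, 992.1, 310.1, 236.4 and 294.8 CPM in CD4 week 1, so that week 1 replicates 1 and 2 were the highest of all 20 libraries. The log2 fold change was -0.48 (interval -1.10 to 0.15, adjusted p = 0.275, edgeR), and week 1 replicate 2 decided it: without that library it was -0.00 (adjusted p = 0.992). Slfn2 had 267.8 to 398.5 CPM in CD4 week 3 (median 377.7) and 296.5 to 563.8 CPM in CD4 week 1 (median 339.7), with a log2 fold change of -0.18 (interval -0.50 to 0.14). In the KLF factors the log2 fold changes were 0.26 for Klf2 (interval -1.08 to 1.6), 0.55 for Klf3 (interval -0.58 to 1.67), 0.17 for Klf6 (interval -0.18 to 0.52) and 0.17 for Klf13 (interval 0.01 to 0.33), none of which passed. Btg1 stood at -0.06 (interval -0.46 to 0.33), with 169.1 to 292.9 CPM in CD4 week 3 and 190.9 to 289.4 CPM in CD4 week 1.

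Whether CD8 and CD4 cells changed differently was tested as the difference between their changes, although the long-term times differ (25 and 18 days of expansion). None of the 10 genes passed this test with edgeR, where 0.655% of all tested genes did. At an unadjusted p under 0.05, 3 of the 10 differed: Btg1 (difference of log2 fold changes 0.93, interval 0.37 to 1.49, adjusted p = 0.122), Slfn2 (0.75, interval 0.29 to 1.21, adjusted p = 0.124) and Slfn1 (1.04, interval 0.15 to 1.92, adjusted p = 0.328). At that unadjusted threshold 11.8% of all tested genes differed. Leaving out CD4 week 1 replicate 2 lowered the difference for Slfn1 to 0.56 (SE 0.296, adjusted p = 0.496, edgeR). By DESeq2 Btg1 passed (0.92, adjusted p = 0.0406), where 2.51% of all tested genes did. By limma-voom none of the 10 passed, where 0.549% of all tested genes did. Without CD8 week 1 replicate 3 Btg1 passed with edgeR too (1.19, adjusted p = 0.00592), where 2.36% of all tested genes did. For Tob1 the difference was -0.05 (interval -0.55 to 0.44) and for Pik3ip1 0.33 (interval -0.38 to 1.05). So 7 rises in CD8 cells and 1 in CD4 cells do not by themselves show that the cell types differed.

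At week 1, CD8 cells held less RNA of these genes than CD4 cells. All but Klf6 were lower in CD8 cells, 9 of 10, where 38.1% of all tested genes passed in either direction and 19% were lower in CD8 cells. Klf3 was 6.07-fold lower (log2 fold change -2.60, SE 0.574, adjusted p = 0.00171, edgeR) and Klf2 4.50-fold lower (-2.17, SE 0.668, adjusted p = 0.0157, edgeR). Klf2 had 240.5 to 336.9 CPM in CD4 week 1 libraries and Klf3 had 73.19 to 149.3 CPM, so no CD8 week 1 library reached them. In the Schlafen genes, Slfn1 was 3.27-fold lower (-1.71, SE 0.307, adjusted p = 0.000316, edgeR) and Slfn2 2.41-fold lower (-1.27, SE 0.157, adjusted p = 7.76e-06, edgeR). Without CD4 week 1 replicate 2, which held 992.1 CPM of Slfn1, the value of Slfn1 was -1.24 (adjusted p = 0.000281, edgeR).

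The adaptors and the remaining factors differed by less at week 1. The log2 fold changes of CD8 over CD4 cells were -0.96 for Btg1 (adjusted p = 0.000788), -0.79 for Btg2 (adjusted p = 0.0151), -0.74 for Pik3ip1 (adjusted p = 0.0212), -0.48 for Tob1 (adjusted p = 0.0307) and -0.39 for Klf13 (adjusted p = 0.000561), all by edgeR. For Klf6 it was -0.14 (interval -0.49 to 0.22). In 7 of the 10 genes no CD8 library reached a CD4 library, where 23.7% of all tested genes had groups that did not overlap. The exceptions were Klf6, Btg1 and Tob1. Tob1 lost its call when CD8 week 1 replicate 1 or 3, or CD4 week 1 replicate 1 or 4, was left out (log2 fold changes -0.45, -0.39, -0.38 and -0.42, adjusted p = 0.0663, 0.0672, 0.0952 and 0.0778), and Pik3ip1 when CD4 week 1 replicate 1 was (-0.56, adjusted p = 0.0788). By limma-voom Tob1 did not pass either (-0.47, adjusted p = 0.0551). The summed proliferation genes stood at 3802 to 7743 CPM in CD8 week 1 and 2928 to 5431 CPM in CD4 week 1, with none of the 18 past the test. CD8 week 1 replicate 3 held the 3802 CPM, and the rest of its group, at 7001 to 7743 CPM, lay above every CD4 week 1 library. The median log2 fold change of CD8 over CD4 cells was 0.84 over the 18 genes and -0.01 over all tested genes. The part of this in the lower levels of the 10 genes was not tested. All CD4 libraries have title numbers in a range of their own and all CD8 libraries lie in ranges A and B, so in the comparisons of CD8 with CD4 cells the cell type and the title range cannot be told apart.

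After long-term culture, 4 of the 10 genes were lower in CD8 week 4 than in CD4 week 3 cells: Klf6 (-0.53, SE 0.169, adjusted p = 0.0216), Klf13 (-0.27, SE 0.0754, adjusted p = 0.0107), Tob1 (-0.53, SE 0.167, adjusted p = 0.0199) and Slfn2 (-0.52, SE 0.155, adjusted p = 0.0145, all by edgeR). Of all tested genes, 32.7% passed in either direction and 15% were lower in CD8 cells. Without CD8 week 4 replicates 1 and 2, 0 of the 10 passed, where 18.9% of all tested genes passed. The log2 fold changes were then -0.59 for Klf6 (adjusted p = 0.0557), -0.50 for Tob1 (adjusted p = 0.101) and -0.48 for Slfn2 (adjusted p = 0.0882), about as large as with all libraries, and -0.18 for Klf13 (adjusted p = 0.138, all by edgeR). Klf6 lost its call without CD4 week 3 replicate 2 (-0.40, adjusted p = 0.0510), and Tob1 without CD8 week 4 replicate 1 (-0.50, adjusted p = 0.0510) or CD4 week 3 replicate 5 (-0.38, adjusted p = 0.0743, all by edgeR). Klf2 (-1.29, interval -2.65 to 0.06) and Klf3 (-1.25, interval -2.39 to -0.11) did not pass with edgeR. Both did with limma-voom (-1.94, adjusted p = 0.0313, and -1.87, adjusted p = 0.0160), where 34.2% of all tested genes passed. Klf3 also passed without CD8 week 4 replicate 4 (-1.57, adjusted p = 0.0485, edgeR), where 30.8% of all tested genes did. Pik3ip1 passed without CD4 week 3 replicate 2 (-0.58, adjusted p = 0.0370, edgeR), where 40.4% of all tested genes did. With that library it stood at -0.41 (adjusted p = 0.202, edgeR). Btg1, at 239 ± 33.7 CPM in CD8 week 4 and 244 ± 45.6 CPM in CD4 week 3 (SD, n = 5 each), had a log2 fold change of -0.03 (interval -0.43 to 0.37). Slfn1 was the gene whose groups did not overlap, with 179.7 to 241.7 CPM in CD8 week 4 and 281.0 to 395.5 CPM in CD4 week 3. It did not pass in the fit of all libraries (-0.67, adjusted p = 0.0938, edgeR). In a fit of these groups alone it passed (-0.69, adjusted p = 0.000914, edgeR), where 31.5% of all tested genes did. That 1 of the 10 was apart compares with 20.6% of all tested genes. Comparisons of CD8 with CD4 cells share their libraries with the comparisons over culture, so the values are set side by side and are not independent of each other.

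**Figure D3:**
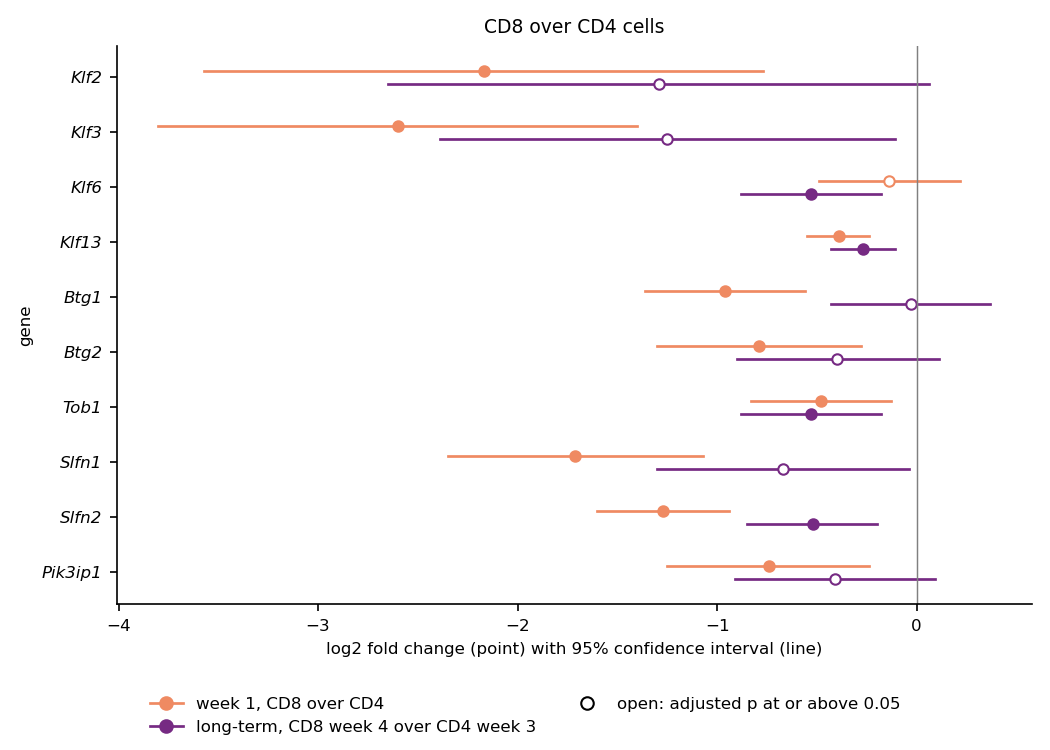
Log2 fold change of each gene in CD8 over CD4 cells (points) with its 95% confidence interval (lines), at week 1 in orange and for CD8 week 4 over CD4 week 3 in purple; filled points had an adjusted p under 0.05 (edgeR). At week 1 all points but Klf6 are filled, down to -2.60 for Klf3, and in long-term culture 4 are. Without CD8 week 4 replicates 1 and 2 these 4 calls were lost, at log2 fold changes of -0.59 for Klf6, -0.50 for Tob1, -0.48 for Slfn2 and -0.18 for Klf13.

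The patterns of the 10 genes over the 20 libraries were compared with each other and with those of other genes. Likeness was measured as the root mean square difference of log2 CPM, each gene centred on its own mean. The measure is not scaled, so that genes which vary little lie near each other whatever their direction, and genes which vary much lie far from most. It is a description over libraries that share groups and depth. Klf2 and Klf3 were nearest to each other among 8604 candidate genes, at 0.447, against medians of 1.67 and 1.6 over all candidates, and the next gene for both was Cacna2d4, a calcium channel subunit gene (0.522 from Klf2 and 0.454 from Klf3). Slfn1 was nearest to Slfn2 (0.280, median over all genes 0.781) and then to Samhd1 (0.304), a dNTP hydrolase gene. The genes nearest to Slfn2 were Tnfaip8l2 (0.182) and Asb13 (0.198). Pik3ip1 was nearest to Flcn (0.195), the folliculin gene of amino acid sensing, and to Hbp1 (0.207), which encodes a repressor of cell cycle genes. Btg2 was nearest to Tnrc6b (0.197), a subunit gene of the microRNA silencing complex, and to Rsrp1 (0.213). For the others the nearest were Trim26 (0.195) and Zdhhc17 (0.210) for Btg1, Zfp12 (0.166) and Coq8a (0.202) for Tob1, Cul3 (0.188) and Slc35d2 (0.189) for Klf6, and Tsc22d2 (0.0848) and Mia3 (0.0962) for Klf13. Among the 10 themselves, Tob1 with Pik3ip1 (0.288) and Btg2 with Pik3ip1 (0.323) were also close. Klf6 and Klf13 lay 0.308 apart although their CD8 log2 fold changes differ in sign, and both vary little (SD of log2 CPM 0.308 and 0.228). Klf2 lay 1.43 to 1.56 from Pik3ip1, Klf13, Tob1, Btg2 and Klf6, near its own SD of 1.66.

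S1pr1, S1pr4, Itgb7, Ccr7 and Cd69 stood for the homing genes that KLF2 is known to control in mouse T cells. In CD8 cells 3 of these 5 rose at week 4, namely S1pr1, S1pr4 and Itgb7. The shares of all tested genes were 33.5% in either direction and 17.1% higher at week 4. Ccr7 (0.44, adjusted p = 0.232) and Cd69 (0.12, adjusted p = 0.861, edgeR) did not pass. S1pr1 had 133.6 (replicate 1), 106.0 (replicate 2), 442.4 (replicate 4) and 301.8 CPM (replicate 5) in CD8 week 4, with its highest CD8 value in replicate 3, against 43.56, 70.74, 226.6, 112.9 and 98.77 CPM in CD8 week 1 (log2 fold change 1.39, SE 0.398, adjusted p = 0.0127, edgeR). As for Klf2, week 4 replicates 1 and 2 were the lowest of their group and week 1 replicate 3 the highest of its own. S1pr4 rose by 0.62 (SE 0.142, adjusted p = 0.00348, edgeR) and Itgb7, an integrin chain gene, by 0.52 (SE 0.110, adjusted p = 0.00197, edgeR), both without overlap between the groups. In CD4 cells none of the 5 passed, and S1pr1 had 593.8 to 784.5 CPM at week 3 and 416.8 to 749.6 CPM at week 1. None of the 5 passed the test of the difference between the changes (S1pr1 1.21, adjusted p = 0.400, edgeR). At week 1, 4 of the 5 were lower in CD8 than in CD4 cells, as Klf2 was: the log2 fold changes were -2.49 for S1pr1, -1.42 for S1pr4, -1.24 for Itgb7 and -0.87 for Ccr7, the last with an adjusted p of 0.0182 (edgeR) and the others with smaller ones. Of all tested genes, 38.1% passed in that comparison and 19% were lower in CD8 cells.

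**Figure D4:**
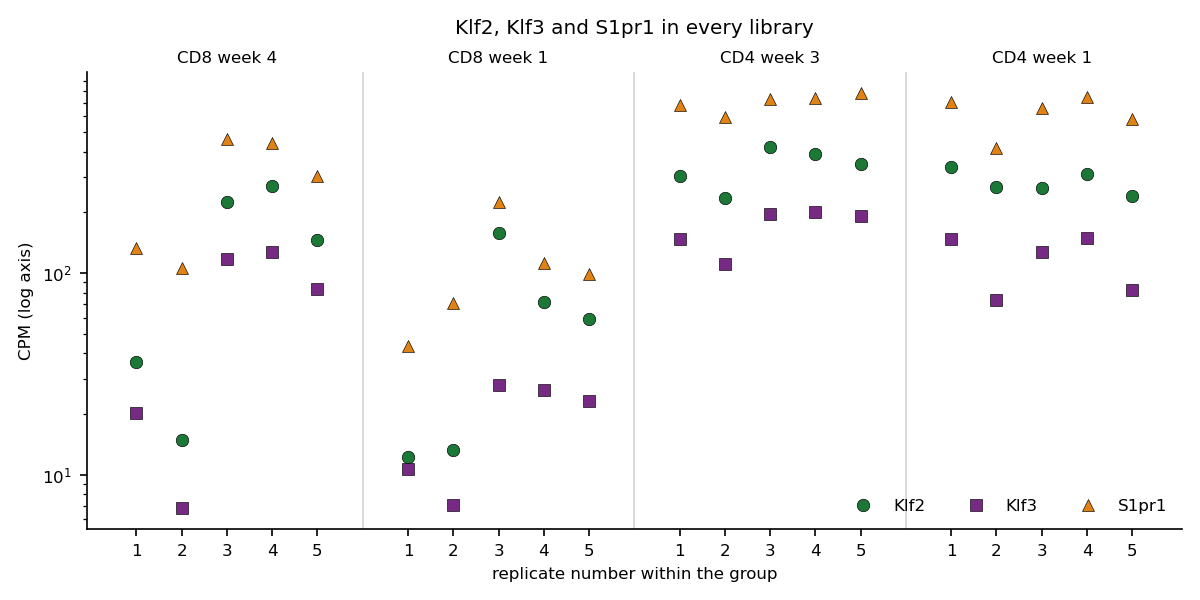
CPM (log axis) of Klf2 (circles), Klf3 (squares) and S1pr1 (triangles) in every library, by group and replicate number. In CD8 week 4, replicates 1 and 2 are lowest for all 3 genes (14.93 and 36.43 CPM of Klf2), in CD8 week 1 replicates 1 and 2 are lowest too and replicate 3 highest, and the CD4 libraries lie between 234.6 and 423.9 CPM of Klf2.

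The relatives of the 10 genes and the pathways they act in were counted by list, against 33.5% of all tested genes called in CD8 and 16.5% in CD4 cells. Of 8 other KLF genes tested, 2 rose and 1 fell in CD8 cells: Klf4 (2.34, SE 0.619, adjusted p = 0.00803), which restrains CD8 T cell proliferation in mice, and Klf12 (1.54, adjusted p = 0.0491) rose from low levels, with group means of 2.35 and 0.402 CPM at week 4 and 0.452 and 0.136 CPM at week 1, and Klf11 fell (-0.74, adjusted p = 0.0173, all by edgeR). In CD4 cells Klf12 rose (1.90, adjusted p = 0.0120, edgeR). Of 2 other BTG and TOB genes, Tob2 rose in CD8 cells (0.52, SE 0.0970, adjusted p = 0.000947, edgeR) and none passed in CD4 cells. Of 4 other Schlafen genes tested, Slfn3 fell in CD8 (-0.90, adjusted p = 0.0470) and in CD4 cells (-1.29, adjusted p = 0.0159, edgeR), opposite in sign to Slfn2 in CD8 cells. Slfn3 is near in sequence to other Schlafen genes, and how shared reads would fall is uncertain.

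Of 11 subunit genes of the CCR4-NOT deadenylase, through which the BTG and TOB proteins act, 1 rose and 2 fell in CD8 cells. Cnot9 fell (-0.62, adjusted p = 0.00382), Cnot6, a catalytic subunit gene, fell (-0.42, adjusted p = 0.00407) and Cnot4 rose (0.18, adjusted p = 0.0365, edgeR). In CD4 cells Cnot9 fell (-0.53, adjusted p = 0.0213, edgeR) and the other 10 did not pass. Of 22 genes of PI3K, AKT and mTOR signalling, 6 rose and 1 fell in CD8 cells, with a median log2 fold change of 0.16. Those that rose include genes of activators and of an inhibitor of the pathway: Rptor (0.67, adjusted p = 7.7e-05) encodes the scaffold of mTORC1, Pik3r5 (0.68, adjusted p = 0.000474) a regulatory subunit of PI3K gamma, and Inpp4b (0.51, adjusted p = 0.00232, all by edgeR) a phosphatase that degrades a PI3K product. Pik3r3, another regulatory subunit gene, also rose (2.36, adjusted p = 0.00475, edgeR), from a group mean under 1 CPM. In CD4 cells Pik3r5 rose (0.43, adjusted p = 0.0193, edgeR) and the other 21 did not pass.

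Of 21 other regulators of T cell quiescence, 9 rose, 2 fell and 10 did not pass in CD8 cells, with a median log2 fold change of 0.30. The smallest adjusted p-values were those of Foxo1 (0.63, adjusted p = 0.000186), the FOXO factor upstream of Klf2, Zfp36l2 (0.72, adjusted p = 0.000254), an mRNA decay factor gene, Vsir (0.72, adjusted p = 0.00059), which encodes the inhibitory receptor VISTA, and Rc3h1 (0.48, adjusted p = 0.000676, all by edgeR), which encodes the mRNA binding protein Roquin-1. For each of these 4, all week 4 libraries were above all week 1 libraries. In CD4 cells Txnip (0.65, adjusted p = 0.00316), an inhibitor of glucose uptake, rose, Zfp36l1 (-0.38, adjusted p = 0.0160, edgeR) fell and 19 did not pass. Set against CD4 cells at week 1, CD8 cells had lower levels of 13 of the 21 and a higher level of 1, with a median log2 fold change of -0.51 (-0.01 over all tested genes). Of all tested genes, 38.1% passed in that comparison and 19% were lower in CD8 cells. Among the 18 proliferation genes, which include DNA replication and mitosis genes, 17 fell in CD8 and 8 in CD4 cells and none rose. In CD8 cells Mcm3 (-1.38), Mcm7 (-1.21) and Mcm4 (-0.97), subunit genes of the replicative helicase, and the mitotic cyclin gene Ccnb1 (-2.38) had the smallest adjusted p-values (0.00554, 0.00602, 0.00897 and 0.00588, edgeR). In CD4 cells these were Mcm3 (-1.41), Pcna (-1.07), Mcm7 (-1.22) and Mcm4 (-1.04), with adjusted p = 0.0116, 0.0130, 0.0133 and 0.0136 (edgeR). Counts by list are descriptions, and no list was tested as a set.

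**Figure D5:**
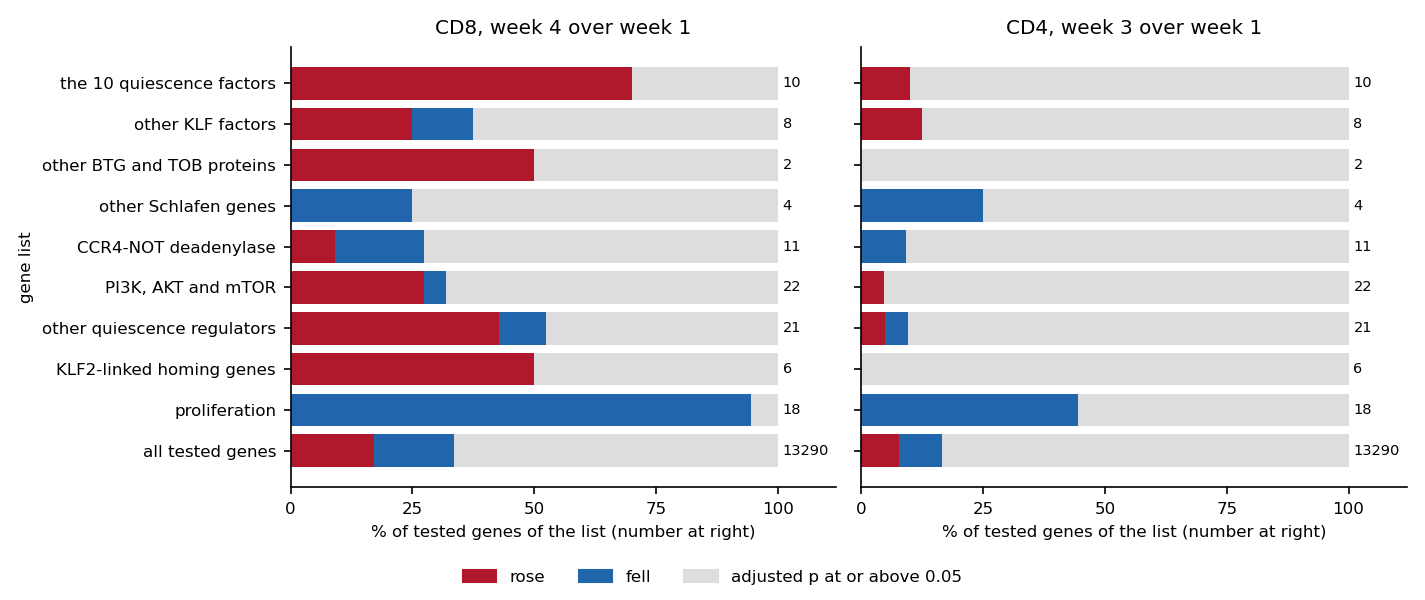
Share of the tested genes of each list that rose (red), fell (blue) or had an adjusted p at or above 0.05 (grey), for CD8 week 4 over week 1 (left) and CD4 week 3 over week 1 (right); the number at the right of a bar is the number of genes tested. In CD8 cells 7 of the 10 quiescence factors and 9 of 21 other quiescence regulators rose and 17 of 18 proliferation genes fell, and in CD4 cells 1 of 10, 1 of 21 and 8 of 18 did.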

How the data were processed

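Per the labels' protocols, polyadenylated RNA was made into libraries with a directional kit and read on a NextSeq. The table deposited by the authors holds raw counts for each gene. Per the file headers, they were made with featureCounts 1.6.3 on exons of GENCODE M12 (GRCm38), reverse stranded, with neither the multi-mapping nor the overlap option set, so reads of either kind were not counted. STAR and mm10 are named in the submitters' processing notes. The deposited table also gives each gene's exon length in bases, used for RPKM.

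Gene IDs were matched to symbols in a table of gene names (49326 of 49671). The 40 pairs of replicates differed by more than sampling noise (chi-square per degree of freedom 5.9 to 141). The test was that of edgeR 4.0.16, run in R 4.3.3 (filterByExpr, TMM factors, 1 quasi-likelihood fit of 4 group means over 20 libraries, Benjamini-Hochberg adjusted p under 0.05 over 13290 genes), which was tested on simulated data. CPM and RPKM were computed on TMM-scaled library sizes, markers per library total, and log2 CPM for likeness with a prior count of 2 in genes of at least 10 CPM. SE was taken as the size of the log2 fold change over the root of its F value. Alternatives were RLE, upper-quartile and no factors, DESeq2 1.42.0, limma-voom (limma 3.58.1), other filters, other sets of libraries and the title range. Python 3.11.15, pandas 2.3.3 and matplotlib 3.10.9 were used.

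The 10 genes and the lists were chosen with earlier results of these data known. The genes named are the 10, the 4 called genes of each list with the smallest adjusted p per cell type, and the 2 genes nearest to each of the 10. The homing list holds 6 genes, of which 1 is not reported here and the other 5 are all given, S1pr1 by library after its values were seen. Protein sequences were not used here.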

Additional observations from a re-analysis of the deposited data

Results flagged for a closer look

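In CD8 week 1, replicate 3 lay far above the other 4 libraries of its group for 3 of the 10 genes. It had 404.6 CPM of Klf6, against 225.2 to 263.5 CPM in the others, 216.1 CPM of Btg1, against 102.9 to 116.8 CPM, and 231.3 CPM of Slfn1, against 103.5 to 137.0 CPM. The gap to the nearest library took 0.787, 0.877 and 0.738 of the range of the group, above the critical value of 0.71 for 5 libraries. Of the 40 groups of 5 libraries that were looked at (10 genes in 4 groups), chance alone would flag about 1 in 20. The summed proliferation genes of this library, 3802 CPM against 7001 to 7743 CPM, also set it apart, and the part of this in the flagged values was not tested.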

How the results depend on the processing

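The count of the 10 genes called in CD8 cells, 7, was 1 within title range A alone, and 6 to 9 under the other alternatives. Of all tested genes, 4.17% passed within range A and 15.8 to 49.2% under the others. The count was 7 to 9 with each library left out in turn, where 26.9 to 39.8% of all tested genes passed. In CD4 cells the count of 1 was 2 with DESeq2 (Tob1 and, just under the threshold, Pik3ip1), and 1 to 3 with each library left out. Of all tested genes, 21.2% passed there with DESeq2 and 8.11 to 27.1% with each library left out, so these counts were near the share of all genes. For the difference between the changes the count of 0 was 1 with DESeq2 and 0 to 1 with each library left out. The share of all tested genes that passed there was 0.655%, 2.51% with DESeq2, and 0.209 to 2.36% with each library left out. Between CD8 and CD4 cells, the count was 7 to 9 at week 1 with each library left out, against 9 in all. The shares of all tested genes were 32.1 to 45.0% and 38.1%. In long-term culture the count was 3 to 5 with each library left out, against 4 in all, and 0 without CD8 week 4 replicates 1 and 2. The shares of all tested genes were 25.5 to 40.4%, 32.7% and 18.9%. With limma-voom Klf2 and Klf3 passed there beside the 4, where 34.2% of all tested genes passed. These alternatives leave out libraries or change the tool, and the cause of the shifts was not tested. No called log2 fold change changed sign under any alternative run. Values of genes with no call crossed 0 for Btg1 in CD4 cells, Tob1 in the difference and Btg1 in the long-term groups. Slfn1 in CD4 cells came up to -0.00 without crossing it. No paired analysis was possible because the labels give the libraries no shared number, animal or culture, and replicates were numbered in accession order. Title numbers alternate between week 1 and long-term libraries, and the labels do not say whether neighbours belong together, so if they do, the unpaired tests, that of Klf2 included, do not use it. At 13.3 to 28.3 M counts a library, the lowest count of any of the 10 genes was 119 (Klf3 in CD8 week 1 replicate 2). The intervals were widest for Klf2 and Klf3. The parts of depth and of the spread between libraries in their width were not tested.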
